A study of Mus musculus with 2 samples.

Results

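The HoxB cluster genes were examined for CTCF binding in mouse embryonic limb. They are the 10 genes Hoxb13, Hoxb9, Hoxb8, Hoxb7, Hoxb6, Hoxb5, Hoxb4, Hoxb3, Hoxb2 and Hoxb1, of 21938 protein-coding genes in the annotation, and all 10 are transcribed from the forward strand of chromosome 11. From the first to the last gene they span chr11:96194316-96368256 of the mm10 build. A 450 kb window around them was taken, reaching 144 kb left of Hoxb13 and 132 kb right of Hoxb1, and every peak of the deposited optimal list with its summit inside was kept, which gave 23 of 49970 optimal peaks (0.046%). The peaks were numbered 1 to 23 along the chromosome. Each is described by its pooled signal, the authors' signal value for the peak in the optimal list, which draws on both libraries, and by its value in the list of each library, taken from the closest summit at most 100 bp away. The replicate lists and the pooled list have different scales, so a pooled value is not the mean of the replicate values.

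The study measured CTCF occupancy by chromatin immunoprecipitation and sequencing with a CTCF antibody. The tissue was limb of B6NCrl mouse embryos at 14.5 days, male and female together, pulverised and pooled from several dissections. There are 2 libraries in 1 group, replicate 1 and replicate 2, which the labels number as biological replicates. The labels also trace both to the same pool, so the spread between them may be technical. No condition was compared, and all values below are descriptions without a test. Read depth is unknown because the lists hold no read counts, and because they hold no expression values the tissue could not be checked against marker genes.

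Hox genes encode homeodomain transcription factors that give cells their position along the body axis. Their order in a cluster follows the order of their expression, with the genes at the Hoxb1 end active early and towards the head and those at the Hoxb13 end late and towards the tail. The HoxA and HoxD clusters are the best known for limb patterning. CTCF is a zinc finger protein that binds a directional DNA motif, blocks the spread of chromatin states at insulators and stops the loop-extruding cohesin complex, and loops form preferentially between motifs that face each other.

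The strong HoxB sites, those with a pooled signal above 100, carried CTCF motifs that differed from site to site. A 14-base scoring matrix of the CTCF core motif was trained on strong optimal peaks of even-numbered autosomes, without chromosome 11, and its consensus read CCACCAGGGGGCGC. The best match within 50 bp of each summit was kept where it scored at least 7.68, the log2 odds score that 5% of windows 1 kb away reached. Of the strong sites between Hoxb13 and Hoxb4, 6 had such a match, and these are shown first, with 60 bases read 5′ to 3′ on the strand of the match from the GRCm38.p6 RefSeq assembly. Capitals mark the 14 bases of the match.

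Peak 10, in the gap between Hoxb13 and Hoxb9, chr11:96235081-96235140, reverse strand: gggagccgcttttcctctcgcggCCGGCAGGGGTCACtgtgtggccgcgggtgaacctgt

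Peak 11, in the same gap, chr11:96240397-96240456, reverse strand: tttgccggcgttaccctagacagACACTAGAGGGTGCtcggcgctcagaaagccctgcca

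Peak 12, in the same gap, at the noncoding gene Gm53, chr11:96261728-96261787, reverse strand: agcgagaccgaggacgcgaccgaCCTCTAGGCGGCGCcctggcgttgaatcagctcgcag

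Peak 13, between Hoxb9 and Hoxb8, chr11:96278925-96278984, forward strand: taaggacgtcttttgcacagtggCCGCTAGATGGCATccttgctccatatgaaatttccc

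Peak 14, in an intron of Hoxb6, chr11:96294673-96294732, reverse strand: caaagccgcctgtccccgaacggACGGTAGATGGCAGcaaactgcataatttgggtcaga

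Peak 15, next to the start of Hoxb5, chr11:96303222-96303281, forward strand: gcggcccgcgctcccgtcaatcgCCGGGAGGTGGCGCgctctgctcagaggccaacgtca

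The cores of peaks 10 and 13 were each found at 1 optimal peak in the whole list, their own, and that of peak 14 at 2. Those of peaks 15, 12 and 11 were found at 5, 6 and 10. Each of these 6 cores occurred once in the 450 kb window, at its own peak. How often strong optimal peaks in general carry such rare cores was not counted. The following 3 sites are shown because their matches scored higher than those of all 6, at 17.44 to 18.30, while their signals were low, at 21.3 to 28.5. Peaks 9 and 21 carry the same 14 bases in opposite directions.

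Peak 9, in the gap between Hoxb13 and Hoxb9, chr11:96223982-96224041, reverse strand: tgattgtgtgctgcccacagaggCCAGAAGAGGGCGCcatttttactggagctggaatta

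Peak 21, right of Hoxb1, chr11:96412110-96412169, forward strand: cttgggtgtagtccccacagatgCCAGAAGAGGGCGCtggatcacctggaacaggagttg

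Peak 18, in the coding sequence of Hoxb3, chr11:96346170-96346229, reverse strand: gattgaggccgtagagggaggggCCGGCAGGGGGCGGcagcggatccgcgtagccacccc

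The core shared by peaks 9 and 21 was found at 584 optimal peaks across the genome, with a median signal of 36.9, and at 135 places on chromosome 11, of which 63 had an optimal summit within 50 bp. Both copies lie in repeat-masked sequence. The last sequences belong to the strong sites nearest to the cluster on either side, which frame the 10 genes.

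Peak 7, in an intron of Ttll6, left of Hoxb13, chr11:96145758-96145817, forward strand: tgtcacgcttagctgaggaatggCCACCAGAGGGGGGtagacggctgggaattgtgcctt

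Peak 20, right of Hoxb1, chr11:96407873-96407932, reverse strand: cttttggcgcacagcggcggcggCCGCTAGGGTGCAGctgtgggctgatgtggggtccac

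The 23 peaks divided into a strong and a weak set with few in between. Signals ran from 19.4 to 247 with a median of 159, against a median of 58.4 over all optimal peaks. Of the 23, 13 had a signal above 100, against 34.5% of all optimal peaks, and the lowest of these 13 had 151. The next was peak 2 with 88.9, followed by peak 8 with 57.1, and the remaining 8 lay between 19.4 and 28.5. Signals between 50 and 100 made up 20.5% of all optimal peaks, and those under 50 made up 45.0%. The limit of 100 was chosen after the values were seen, and the upper quartile of all optimal peaks, 142, gave the same 13. All 10 weaker peaks were 276 bp wide, as were 65.3% of all optimal peaks, and the 13 strong ones were 163 to 225 bp wide.

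The window held more sites than most stretches of its length. Over 6046 tiles of 450 kb along the genome the median was 6 optimal peaks and the upper quartile 12, and 420 tiles held at least 23. Tiles on chromosome Y and in unsequenced stretches were kept, which can lower the median and the quartile. Of the 23 peaks, 7 lay left of Hoxb13, 11 between the start of Hoxb13 and the end of Hoxb1, a span of 174 kb, and 5 right of Hoxb1. Within the span 7 of 11 peaks were strong, with a median of 166. Across the window edges, the nearest optimal summit outside on the left had a signal of 30.9 at 16.6 kb from the edge, and the first inside was peak 1 with 24.1. On the right, the last inside was peak 23 with 219, and the next outside had 21.3 at 34.7 kb from the edge.

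**Figure D1:**
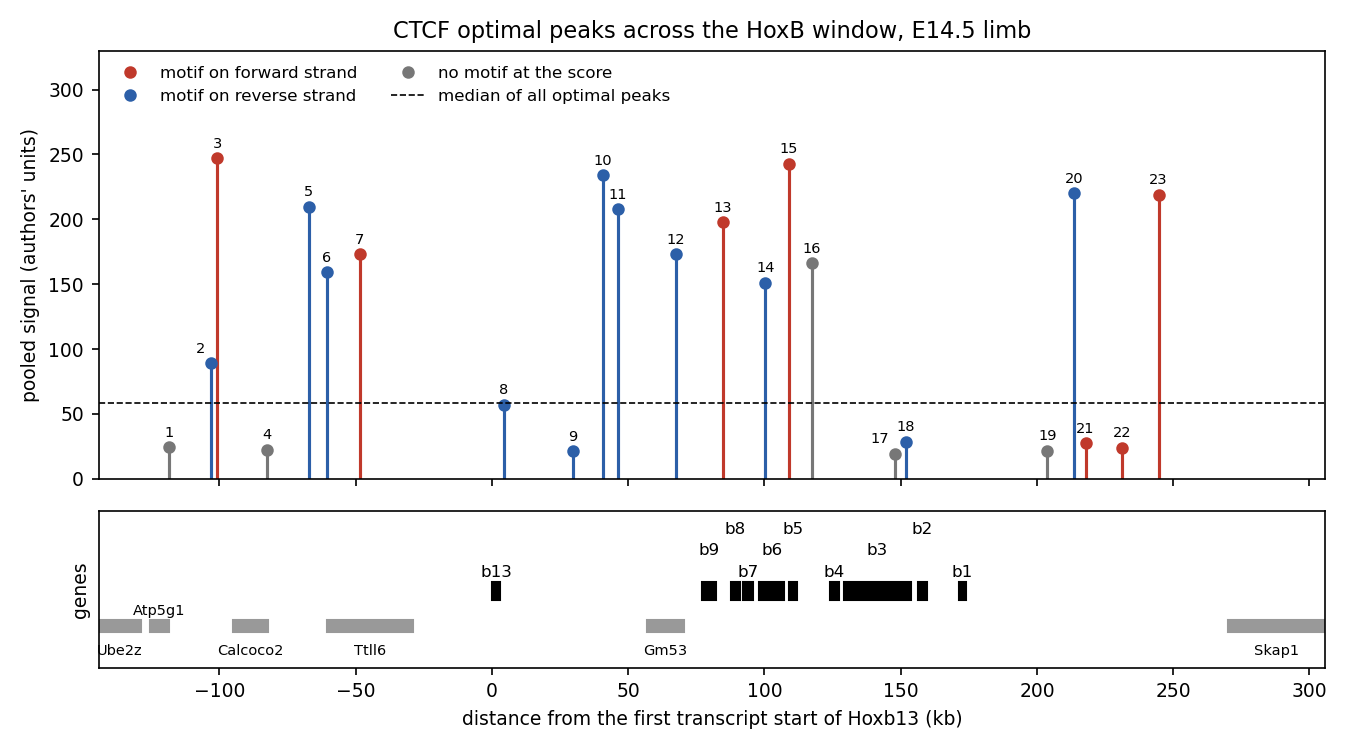
The upper panel plots the pooled signal of each of the 23 optimal peaks, numbered, against distance in kb from the first transcript start of Hoxb13, coloured by motif strand, with the median of all optimal peaks as a dashed line. The lower panel shows the HoxB genes in black and other genes in grey. Strong peaks stand left of Hoxb13, in the gap and up to the Hoxb5 to Hoxb4 interval, and again right of Hoxb1, and those over Hoxb3 are at 19.4 and 28.5.

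The 74.0 kb gap between Hoxb13 and Hoxb9 is the longest interval between HoxB genes and held the most CTCF sites. It is 42.5% of the HoxB span in length and held 5 of its 11 peaks and 46.2% of its summed signal. Its shares of peaks and signal were thus near its share of the length. Hoxb13, a gene of tail and prostate development, is set apart from the other 9 genes by this stretch. Peak 8 (chr11:96198637-96198912) lay 1328 bp past the end of Hoxb13 and 4459 bp from its transcript start, and had a signal of 57.1, with 29.4 in replicate 1 and 26.5 in replicate 2 (27.9 ± 2.03, SD, n = 2). It was the nearest site to Hoxb13 and stood close to the median of all optimal peaks.

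Peak 9 (chr11:96223854-96224129), a further 25217 bp to the right, had a signal of 21.3, with 13.3 in replicate 1 and 7.93 in replicate 2 (10.6 ± 3.77, SD, n = 2). It was the least stable site of the gap, since it was missing from the conservative list and from the strongest 49970 peaks of replicate 2, although its motif score of 18.30 was the highest among the 23 peaks, shared with peak 21. Peak 10 (chr11:96234997-96235204) was the strongest site of the gap, with a signal of 234 and rank 5288 of all optimal peaks. Its values were 129 in replicate 1 and 106 in replicate 2 (118 ± 16.3, SD, n = 2). Peak 11 (chr11:96240317-96240523), 5306 bp farther right, had a signal of 208 with 103 in both replicates (103 ± 0.255, SD, n = 2). Peaks 10 and 11 thus formed a close pair of strong sites in the middle of the gap, 36343 and 31037 bp left of Hoxb9.

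Peak 12 (chr11:96261677-96261839) was the last site before Hoxb9. It lay 9701 bp left of the Hoxb9 start and 3408 bp left of Mir196a-1, a microRNA gene known for cleaving Hoxb8 messenger RNA in mouse embryos. The site fell in an exon of the long noncoding gene Gm53, within 1 kb of one of its transcript starts. Its signal was 173, with 93.3 in replicate 1 and 81.0 in replicate 2 (87.2 ± 8.74, SD, n = 2). All 5 motifs of the gap were on the reverse strand, opposite to the direction in which the HoxB genes are transcribed. At the stricter score of 13.14, which 1% of flanking windows reached, those of peaks 9 and 10 alone remained.

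From Hoxb9 to Hoxb4 there were 4 strong sites, peaks 13 to 16. Peak 13 (chr11:96278859-96279044) was the single site between Hoxb9, a gene whose loss alters mouse ribs, and Hoxb8, which acts in blood and neural lineages. It lay 2953 bp upstream of Hoxb8 and 7495 bp past the first start of Hoxb9, and was the nearest site to the starts of both. Its signal was 198, with 102 in replicate 1 and 94.0 in replicate 2 (98.2 ± 5.84, SD, n = 2), and its motif was on the forward strand, facing Hoxb8.

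Hoxb8, Hoxb7 and Hoxb6 had no site between them. The Hoxb8 to Hoxb7 interval is 1307 bp long and held no peak even in the pooled list of 300000, and the 2313 bp from Hoxb7 to Hoxb6 held no optimal one. Hoxb7, whose regulatory sequence is widely used to mark the ureteric bud, lay 7671 bp from peak 13 at its first start. Over all its annotated starts the nearest site was peak 14, at 5984 bp. Hoxb6, a gene of lateral plate mesoderm, had peak 14 (chr11:96294607-96294807) inside an intron of its long transcript, 2223 bp past its first start. That position is also in an intron of the antisense transcript Hoxb5os. Peak 14 was the weakest of the 13 strong sites, with a signal of 151, and with 83.7 in replicate 1 and 70.3 in replicate 2 (77.0 ± 9.50, SD, n = 2).

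Hoxb5 was the one HoxB gene with CTCF at its promoter. This gene is needed in mice for the normal position of the shoulder girdle. Peak 15 (chr11:96303146-96303351) lay 75 bp upstream of its start, in the 1766 bp interval after Hoxb6, and was the strongest site among the 10 genes, with a signal of 243 and rank 4714 of all optimal peaks. Its values were 131 in replicate 1 and 111 in replicate 2 (121 ± 14.2, SD, n = 2). Its 14-base core, shown above on the forward strand, was found at 5 optimal peaks genome-wide. The promoter count, an optimal summit within 1 kb of any transcript start, was thus 1 of 10 HoxB genes. It was 33.4% over all protein-coding genes and 6 of the 29 other Hox genes (20.7%). Those 6 include Hoxa10, Hoxc10 and Hoxd10, and HoxB has no gene of that group, so the sets are not alike. With 10 genes the difference from the other Hox genes was not tested.

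Peak 16 (chr11:96311649-96311844) stood alone in the 12145 bp between Hoxb5 and Hoxb4, a gene known for expanding blood stem cells. It lay 6521 bp upstream of Hoxb4 and 5419 bp left of the microRNA gene Mir10a. Its signal was 166, with 91.7 in replicate 1 and 73.7 in replicate 2 (82.7 ± 12.7, SD, n = 2). It was the single strong site of the window without a motif at the 5% score. The best 14 bases near its summit, CCAGTAGAGTCCGC, scored 6.57, under the limit of 7.68. With 62.7% GC in the 100 bp on either side of its summit, the site lay inside the range of 44.3% to 65.2% seen at the strong sites.

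The genes from Hoxb4 to Hoxb1 lay in the longest stretch between neighbouring strong sites of the window. From peak 16 to peak 20 the distance was 96.2 kb, with the first starts of Hoxb4, Hoxb3, Hoxb2 and Hoxb1 inside and 3 weak peaks. The next longest, from peak 7 to peak 10 around Hoxb13, was 89.3 kb. Stretches cut by a window edge were left out. The one right of peak 23 ran 61.0 kb to the edge, and the next summit, 34.7 kb outside, had a signal of 21.3. Peak 17 (chr11:96342049-96342324), in an intron of Hoxb3 and at the start of the antisense transcript Gm11536, had the lowest signal of the window, 19.4, with 9.26 in replicate 1 and 7.55 in replicate 2. It lay 1242 bp from the nearest start of Hoxb3, a hindbrain gene with 4 annotated starts, and had no motif. Peak 18 (chr11:96346077-96346352), in coding sequence of Hoxb3 and an exon of the antisense transcript Hoxb3os, had a signal of 28.5. Its values were 18.2 in replicate 1 and 9.50 in replicate 2 (13.8 ± 6.14, SD, n = 2), the widest relative difference of the 23 peaks, and it was missing from the conservative list. Peak 19, right of Hoxb1, had a signal of 21.6 and no motif.

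Hoxb2 and Hoxb1, which specify hindbrain segments and facial motor neurons, had no optimal peak in their bodies or between them. For Hoxb2 the nearest optimal site was peak 18 at 4310 bp, and for Hoxb1 the same peak at 19537 bp, the longest such distance. The 11739 bp between Hoxb2 and Hoxb1 held no peak in the pooled list of 300000. The intervals from Hoxb4 to Hoxb3, 1687 bp, and from Hoxb3 to Hoxb2, 2594 bp, held no optimal peak. In all, 4 of the 9 intervals between neighbouring genes held 8 optimal peaks and the bodies of Hoxb6 and Hoxb3 held the other 3.

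Several summits stood just below the optimal list. The pooled list had 107 summits in the window, of which 84 were not optimal. The strongest of these lay in Hoxb6 at position 96297225, with a pooled signal of 26.7, and with 17.2 in replicate 1 and 8.18 in replicate 2. One in Hoxb8 at 96284656 had a pooled signal of 25.5, with 19.4 in replicate 1 and 6.82 in replicate 2. Both signals were above those of 6 window peaks that are in the optimal list, and both sites entered when replicate 1 was taken alone. In Hoxb1, a summit at 96366913 had a pooled signal of 13.5 and a value of 10.7 in replicate 2, with no summit within 100 bp in replicate 1. On the left flank, at 96111163 in Calcoco2, the pooled signal was 20.5, with 12.2 in replicate 1 and 8.21 in replicate 2. With replicate 2 alone the Hoxb1 site put Hoxb1 beside Hoxb5, and the promoter count was then 2 of 10.

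Between the HoxB genes the strongest summits outside the optimal list were weak. In the Hoxb13 to Hoxb9 gap it lay at 96266086, with a pooled signal of 12.3, no summit within 100 bp in replicate 1 and 7.74 in replicate 2. Between Hoxb7 and Hoxb6 it lay at 96290188 with a pooled signal of 9.42, and with 4.51 in replicate 1 and 3.40 in replicate 2. The other 4 intervals with such a summit had pooled signals of 9.05 at 96313842 (Hoxb5 to Hoxb4), 7.40 at 96321663 (Hoxb4 to Hoxb3), 6.53 at 96276752 (Hoxb9 to Hoxb8) and 6.21 at 96349493 (Hoxb3 to Hoxb2), each found in 1 replicate list. None of these interval summits reached the lowest optimal signal of the window, 19.4.

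Strong sites also stood on both sides of the cluster. On the left, peak 3 (chr11:96093428-96093652) had the highest signal of the window, 247, with 122 in replicate 1 and 126 in replicate 2 (124 ± 2.88, SD, n = 2), between genes. Its neighbour peak 2, in repeat-masked sequence 2252 bp away, had 88.9. The core of peak 2, CCAGAAGAGGGCAT, was carried by 1480 optimal peaks with a median signal of 32.7. It occurred 2697 times on chromosome 11, where 144 copies had an optimal summit, and 17 times in the window.

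The next 3 strong sites lay at Ttll6, which encodes an enzyme that adds glutamate chains to tubulin. Peak 5 lay 6634 bp upstream with a signal of 209.7 (96.9 in replicate 1 and 112 in replicate 2), peak 6 lay 86 bp upstream with 159 (73.2 and 85.6), and peak 7 lay in an intron with 173 (91.8 and 81.5). Ttll6 therefore had a site at its promoter, as Hoxb5 had. The promoters of Atp5g1 and Calcoco2, also left of the cluster, had weak sites without a motif. Peak 1 lay 310 bp upstream of Atp5g1, a mitochondrial ATP synthase subunit gene, with 24.1, and peak 4 lay 52 bp inside Calcoco2, an autophagy receptor gene, with 22.3. Ube2z, a gene for a ubiquitin-conjugating enzyme at the left edge, had no peak.

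Right of Hoxb1, peaks 20 and 23 were strong. Peak 20 (chr11:96407785-96408008) had a signal of 220.3, with 121 in replicate 1 and 99.4 in replicate 2 (110.1 ± 15.1, SD, n = 2). Peak 23 (chr11:96438843-96439054) had 219, with 115 in replicate 1 and 100.4 in replicate 2 (108 ± 10.4, SD, n = 2), and lay 25640 bp upstream of Skap1, which encodes a T cell receptor adaptor. Between them lay peaks 21 and 22, both in repeat-masked sequence, with signals of 27.4 and 23.9. The right flank thus held a strong pair 31.0 kb apart with weak repeat sites inside it.

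The replicates ordered the HoxB sites alike. All 23 peaks had a summit in both full lists, and over the 23 sites Spearman's rho was 0.940 and Pearson's r of the log2 values was 0.988. The sites share both libraries and come from a list derived from both, which partly sets this likeness. Within the 13 strong sites rho was 0.775, and within the 8 below 50 it was 0.524. The log2 ratio of replicate 1 over replicate 2, after each list was divided by its median over all optimal peaks (30.6 in replicate 1 and 29.1 in replicate 2), had an SD of 0.18 over the strong HoxB sites. Over all optimal peaks above 100 the SD was 0.21. Over the 8 weak HoxB sites it was 0.33, against 0.68 over all optimal peaks below 50. These sets are not alike in range, since the 8 sites had signals of 19.4 to 28.5 and the optimal list goes down to 5.14.

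After that scaling, replicate 1 was the higher one at 18 of 23 HoxB peaks, against 50.6% of all optimal peaks with both values. The median log2 ratio over the 23 was 0.18. The exceptions were peaks 3, 5, 6, 11 and 19, and the first 3 of these lie left of Hoxb13. The SD of the replicate values was at most 15.4% of their mean at the strong sites and up to 44.4% at the weak ones, the highest at peak 18. The conservative list held 21 of the 23, against 87.6% of all optimal peaks, and 18 of the 23 were among the strongest 49970 peaks of both replicates, against 81.2%. All 13 strong sites were in both of these sets. The 5 peaks outside the latter set were 4, 9, 17, 18 and 19.

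**Figure D2:**
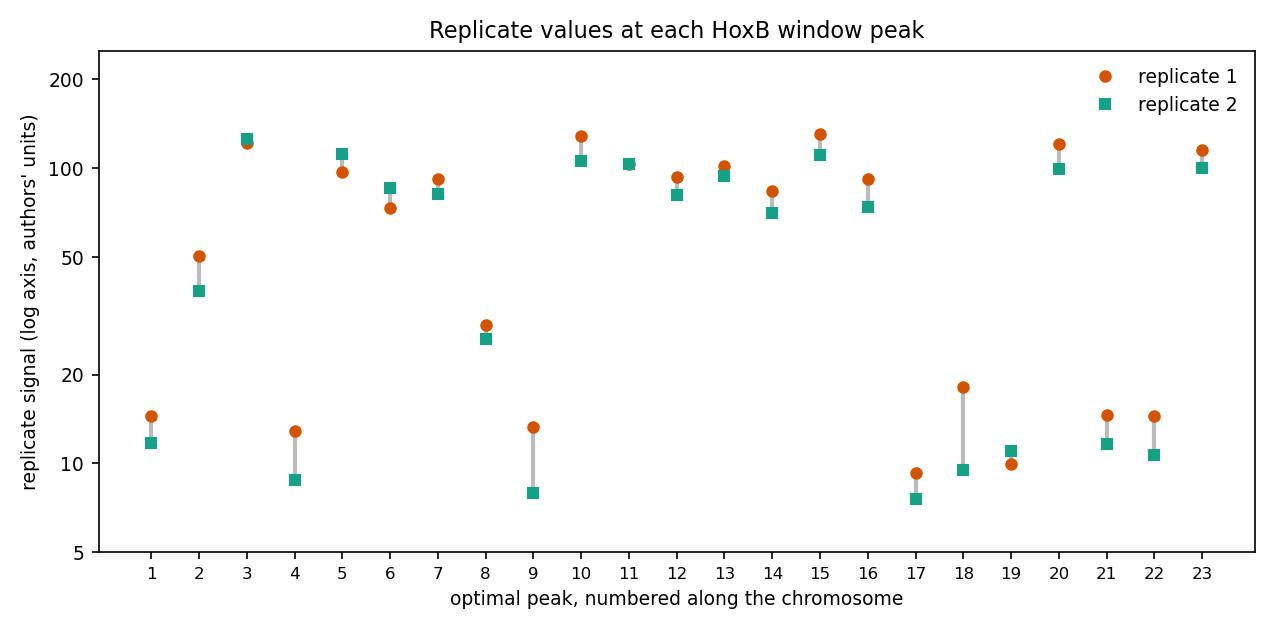
Signals of replicate 1 (circles) and replicate 2 (squares) are plotted on a log axis in the authors' units for each of the 23 optimal peaks in chromosome order, joined by a grey line. The strong sites lie between 70.3 and 131 in both libraries, and the longest lines are at the weak peaks 18, with 18.2 and 9.50, and 9, with 13.3 and 7.93.

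A CTCF motif was found at 18 of the 23 HoxB peaks, against 80.4% of all optimal peaks. Of the 13 strong sites 12 had one, against 93.6% of all optimal peaks above 100, and at the stricter 1% score 8 did, against 74.4%. Of the 8 sites below 50, 4 had one, against 68.7%. The shares over all 23 and over the strong sites at the 5% score were near those of the whole list, and the others rest on few sites. At the strong sites the centre of the match lay at most 9 bp from the summit, and none of the 13 summits was in repeat-masked sequence.

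Sites with a high motif score had both high and low signals. Peak 20, with a signal of 220.3, had the lowest score among the peaks with a motif, 10.67, and peak 14 scored 11.49. The top score of 18.30 belonged to peaks 9 and 21, with signals of 21.3 and 27.4. Peak 5 came next with a score of 17.92 and a signal of 209.7, followed by peak 18 with 17.44 and 28.5. Peak 23 scored 16.05 with a signal of 219, and peak 3 scored 15.78 with the highest signal, 247. The highest score the matrix allows is 21.96. Peaks 1, 4, 17 and 19, which had no match at the 5% score, all had signals under 25, and peak 16 was the exception at 166.

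**Figure D3:**
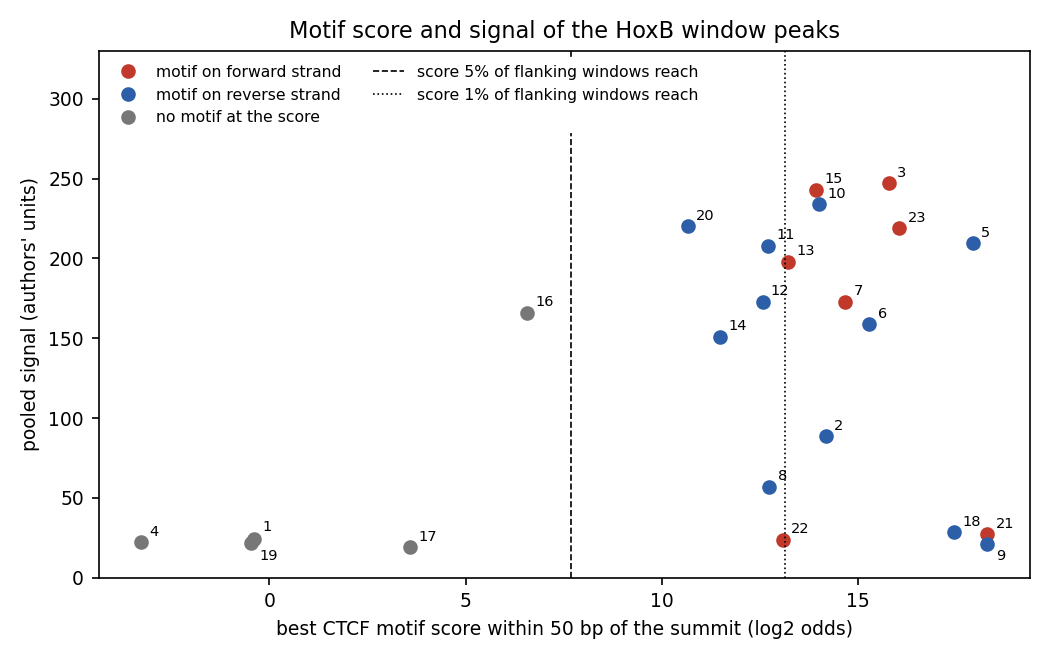
The pooled signal of each numbered HoxB window peak, in the authors' units, is plotted against its best CTCF motif score (log2 odds), with lines at the scores that 5% and 1% of flanking windows reach. Peak 16 has a signal of 166 left of the first line, and of the 4 peaks with scores of 17.44 to 18.30, peak 5 has a signal of 209.7 and peaks 9, 18 and 21 have 21.3 to 28.5.

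Motif strands changed along the cluster. Within the HoxB span, 7 of 9 motifs were on the reverse strand, including all 5 of the gap, and the 2 forward motifs were those of peak 13 upstream of Hoxb8 and peak 15 upstream of Hoxb5. Over the whole window 11 were reverse and 7 forward. Of the 11 pairs of neighbouring strong sites with a motif, 4 faced each other, 4 faced apart and 3 pointed the same way.

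Among the pairs that faced each other were peaks 7 and 10, 89.3 kb apart, with Hoxb13 between them. Another was peaks 13 and 14, 15.7 kb apart, with the starts of Hoxb8, Hoxb7 and Hoxb6 between them. Peaks 12 and 13, which faced apart across 17.2 kb, had Hoxb9 between them. Forward peak 15 and reverse peak 20 also faced each other, with the starts of Hoxb5 to Hoxb1 and the motif-less peak 16 between them. No contacts were measured in these libraries, so the strands describe sequence alone.

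Motif matches in the HoxB window had a peak about as often as those of the whole chromosome. A scan of both strands at the 1% score found 56 matches, of which 13 (23.2%), at 12 peaks, had an optimal summit within 50 bp, against 23.3% of 8819 matches over chromosome 11. Of 34 window matches in repeat-masked sequence 3 had one, against 10.4% on the chromosome, and of 22 outside repeats 10 had one, against 42.9%. Of the 43 window matches without an optimal summit, 6 had a summit of the pooled list. Within the HoxB span 5 of 15 matches had a summit, and in the Hoxb13 to Hoxb9 gap 2 of 10. The highest-scoring match without a peak, at position 96122512, held CCAGAAGAGGGCGC, the same 14 bases as peaks 9 and 21, with a score of 18.30. Outside repeats, the match at 96276762 between Hoxb9 and Hoxb8 scored 17.20 and had no optimal summit. Those at 96185441 left of Hoxb13, scoring 16.43, and at 96265880 in the gap, scoring 15.73, had none either. A match is a description of letters and not a bound site.

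Set beside the other Hox clusters, HoxB was the longest from first to last gene and had 11 optimal peaks, 6.32 per 100 kb. HoxA held 11 in 105 kb (10.4 per 100 kb), HoxC 5 in 116 kb (4.32) and HoxD 7 in 96.8 kb (7.23). The median signal was 166 in HoxB, against 69.3 in HoxA, 187 in HoxC and 133 in HoxD. Peaks above 100 numbered 7 in HoxB, 5 in HoxA, 3 in HoxC and 4 in HoxD. The highest signal was 243 in HoxB, at Hoxb5, against 359 in HoxA, at Hoxa7, 261 in HoxC and 258 in HoxD, so that of HoxB was the lowest of the 4. With 5 to 11 peaks a cluster and 1 group, these values were not tested.

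The longest stretch between neighbouring Hox gene bodies held 0 to 5 peaks in the 4 clusters. The Hoxb13 to Hoxb9 gap held 5 peaks in 74.0 kb. In HoxA the longest stretch was the 11.9 kb from Hoxa11 to Hoxa13, with 3 peaks, and those of HoxC, 15.8 kb from Hoxc12 to Hoxc11, and of HoxD, 14.5 kb from Hoxd3 to Hoxd1, held none. At the 5% score motifs were 2 forward and 7 reverse in HoxB, against 3 and 3 in HoxA, 3 and 1 in HoxC, and 3 and 1 in HoxD. In HoxB the reverse motifs of peaks 8, 11, 12 and 14 did not reach the 1% score, and counts at that score are not given for the other clusters.

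At promoters, Hoxb5 had a counterpart of the same paralog group in 2 other clusters. Hoxb5 had a site 75 bp from its start with 243 (131 in replicate 1 and 111 in replicate 2). Hoxa5 had one at 83 bp with 186 (99.5 and 84.2), and Hoxc5 one at 117 bp with 187 (96.3 and 91.6). The other Hox promoters with an optimal peak were Hoxa7 (359), Hoxa10 (23.1), Hoxc10 (228) and Hoxd10 (59.3). None of the HoxB genes other than Hoxb5 had one in the optimal list.

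**Figure D4:**
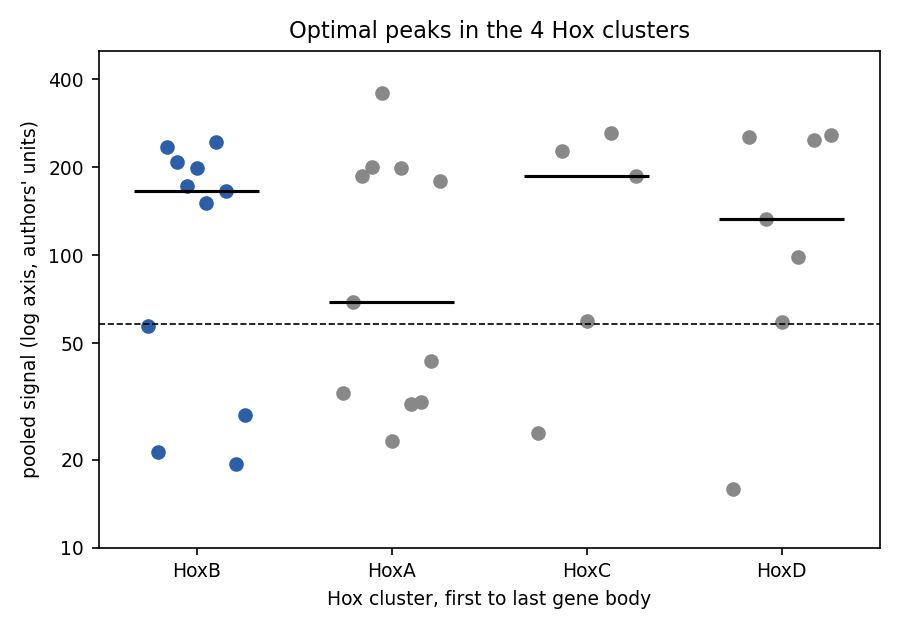
Each point is the pooled signal of 1 optimal peak, on a log axis in the authors' units, in the HoxB, HoxA, HoxC and HoxD clusters, spread in chromosome order, with the cluster median as a bar and the median of all optimal peaks, 58.4, as a dashed line. HoxB has 7 peaks above 100 and a median of 166, against medians of 69.3 in HoxA, 187 in HoxC and 133 in HoxD.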

How the data were processed

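CTCF peak lists of 2 libraries of E14.5 limb were analysed on mm10. Per the deposited notes, each replicate list derives from that library's filtered alignments, the pooled list from both libraries, and the optimal and conservative lists, thresholded on the irreproducible discovery rate, from those 3 lists. The deposited signal values are the authors', on each list's own scale. The deposited −log10 q-values, capped at 4.88 in the optimal list, and the deposited scores were not used to rank peaks. For the aligner, caller, control and thresholds, the sources used here give nothing. Each replicate and pooled list holds 300000 peaks.

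Summits were matched within 100 bp, genes taken from GENCODE M21 and sequence from GRCm38.p6, with pysam 0.24.0 and scipy 1.17.1 in Python 3.11.15. The motif matrix was refined in 10 rounds on the strongest 1000 optimal peaks of even-numbered autosomes. The steps were tested on simulated data. The members and lists were chosen with earlier results of these data known. Named are the 10 genes, every peak of the window, other genes holding a peak or at the edges, Hox genes with a promoter peak, and the strongest summit outside the optimal list in the intervals between HoxB genes. Such summits named in gene bodies and on the left flank, and motif matches named outside peaks, were chosen after their values were seen. Alternatives were other lists, single replicates, matching and promoter distances, motif scores and matrices.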

Additional observations from a re-analysis of the deposited data

How the results depend on the processing

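Of 85 alternatives computed over 23 results, 76 kept the value within the replicate spread or within 1.5 times the count, 9 moved it further and 0 turned its direction. Taking the strongest 50% of optimal peaks left 14 peaks in the window, 7 in the HoxB span, 3 in the Hoxb13 to Hoxb9 gap and 6 in HoxA. Limiting the window to the span from first to last gene left 11, by construction. Promoters of 5 kb gave 6 HoxB genes (Hoxb13, Hoxb8, Hoxb6, Hoxb5, Hoxb3 and Hoxb2). Matches without a peak numbered 243 at the 5% score. With single replicates, counts ranged from 20 to 25 in the window, 9 to 12 in the span, 4 to 5 in the gap, 1 to 2 for promoters, 16 to 20 with a motif and 7 to 8 on the forward strand, 12 to 13 in HoxA, and were 6 in HoxC and 6 in HoxD, and the cause of these shifts was not tested. The 5 empty intervals between HoxB genes were empty in the conservative list and with either replicate alone. A matrix trained on odd-numbered autosomes other than 11 gave the same strands at the 18 peaks. The alternatives to the signal limit of 100, the upper quartile (13 peaks) and the median (14), were chosen after seeing the data. The labels trace both libraries to 1 pool, although they number them as biological replicates. Read depth is unknown, and sites weaker than those listed cannot be judged.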
